A study of Mus musculus with 9 samples.

Results

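The genes described here encode the 3 large enzyme families that attach a polar group to lipophilic molecules: the UDP-glucuronosyltransferases (UGT), the cytosolic and mitochondrial glutathione S-transferases (GST) and the cytosolic sulfotransferases (SULT). They were taken from the deposited count table by symbol, as every row that begins with Ugt, Gst (alpha, mu, pi, theta, kappa, omega or zeta class) or Sult followed by its number, which gave 66 of the 21720 rows (22 UGT, 23 GST and 21 SULT rows). The 9 Ugt1a rows share exons and were summed to 1 locus, so 58 units were described, and 37 of them passed the filter on low counts and were tested among 16152 genes.

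Messenger RNA had been sequenced from the colon of female wild-type C57BL/6 J mice in 3 groups of 3 libraries. The Atorvastatin group received atorvastatin, a statin that inhibits cholesterol synthesis, at 10 mg/kg in 0.2 mL by gavage, once a day on the 5 days from day 3 to day 7. Mice of the Model group were given DSS (dextran sulfate sodium, 5%) by gavage for 7 days, a polysaccharide that damages the lining of the colon and serves as a model of ulcerative colitis. The Normal group received the vehicle alone, 0.5% sodium carboxymethyl cellulose (CMC-Na), over 7 days. The labels do not state whether the Atorvastatin group was also given DSS, and they do not state that each library came from its own mouse, so that p-values reflect only how far these libraries differ, which may be technical variation. The ages of the mice are not given in the labels.

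Conjugation is the second phase of xenobiotic metabolism. UGT enzymes, which sit in the membrane of the endoplasmic reticulum, transfer glucuronic acid from UDP-glucuronic acid to bilirubin, steroids, bile acids and drugs. GST enzymes join glutathione to electrophiles, including products of lipid peroxidation, and SULT enzymes transfer sulfate from the donor PAPS to phenols, steroids and catecholamines. The intestinal epithelium expresses all 3 families, and the conjugates leave the cell through ABC transporters.

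The Ugt1a locus illustrates why its rows were not read as separate genes. In the GENCODE M21 annotation of GRCm38, chromosome 1, each of the 9 Ugt1a genes joins a first coding part to the same 4 exons, which hold 735 coding bases or 45.79% to 46.4% of a coding sequence. The sequences across that junction show what a read can and cannot tell apart, with the last 25 bases of the first part in lower case and the first 25 bases of the shared part in capitals.
Ugt1a1: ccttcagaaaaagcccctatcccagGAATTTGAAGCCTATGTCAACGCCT
Ugt1a6a: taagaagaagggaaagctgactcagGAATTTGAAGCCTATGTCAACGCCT
Ugt1a9: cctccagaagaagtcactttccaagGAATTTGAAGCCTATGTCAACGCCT
In the transcript compared for each of the 9 genes, only 6 distinct ends of the first part occurred at this junction. The shared part was the same in all 9. The transcripts compared for Ugt1a6a and Ugt1a7c, with 5 and 6 exons, have identical coding sequences over all 1593 bases. RefSeq places the starts of these 2 genes apart, at 88134559 to 88134858 for Ugt1a6a and 88094751 to 88095050 for Ugt1a7c (GRCm38.p6). Other transcripts of the 2 genes may differ in coding bases and were not compared.

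Depth and library makeup were similar in some respects and not in others. Total estimated counts lay between 72584333 and 91737502 per library, and the conjugation genes took 0.224% to 0.236% of them in the Atorvastatin libraries, 0.143% to 0.206% in the Model libraries and 0.217% to 0.252% in the Normal libraries. A set of 10 pancreatic acinar genes accounted for 6.49% of counts in the Model 2 library, for 2.77% in Model 3 and for at most 0.253% in each other library. Model 3 also held small-intestinal transcripts, with Lct (lactase) at 50.3 CPM (counts scaled to a common library size) and Sis (sucrase-isomaltase) at 47.0 CPM, against at most 0.375 CPM of Lct and 2.603 CPM of Sis in each other library. Lct and Sis belong to a list of 10 small-intestinal genes, which summed to 569 CPM in Model 3 and at most 339 CPM in each other library. The list was not uniform, with Fabp2 at 23.8 CPM in Model 3, against 61.3 to 200 CPM in Normal. Of its 9 tested genes, 8 had positive log2 fold changes in Model over Normal and 1 a negative one. None was called by edgeR, DESeq2 or limma-voom in any comparison. Hoxb13, a gene of the distal colon, stood at 1.29, 120 and 0.406 CPM in the Atorvastatin libraries, 241, 21.2 and 170 CPM in the Model libraries and 25.6, 141 and 107 CPM in the Normal libraries. It is 1 of 6 listed distal colon Hox genes, of which 4 had negative and 2 positive log2 fold changes in Atorvastatin over Model. The 10 genes of the epithelial marker list were detected in every group, with summed levels of 12223 to 16276 CPM in Atorvastatin, 13968 to 18486 CPM in Model and 14946 to 18704 CPM in Normal. None of these 10 passed edgeR's test in any comparison, with 2, 0 and 1 at an unadjusted p under 0.05 in Model against Normal, Atorvastatin against Model and Atorvastatin against Normal, and DESeq2 called 1, 0 and 0 of them and limma-voom none. Other epithelial lists were less even. The 8 goblet cell markers had summed levels of 17047 to 27568 CPM in Atorvastatin, 25115 to 34811 CPM in Model and 35709 to 82536 CPM in Normal. Of these, edgeR called 0 in Model against Normal, where 4 had an unadjusted p under 0.05, DESeq2 called 4 and limma-voom 0, and in Atorvastatin against Normal it called Clca1 alone, a goblet cell secretory protein named after its values were seen, while DESeq2 called 3 and limma-voom 1. Clca1 fell in that comparison by 3.78 on the log2 scale (edgeR adjusted p = 0.0295), a call that ended without Normal 1 (0.0884), Normal 3 (0.110), Model 1 (0.0501), Atorvastatin 1 (0.0931) or Atorvastatin 3 (0.123). The 9 absorptive colonocyte markers had summed levels of 9241 to 15334 CPM in Atorvastatin, 14464 to 23220 CPM in Model and 18450 to 28272 CPM in Normal, and in Atorvastatin against Normal edgeR and limma-voom called 0, DESeq2 called 3, and 3 were lower and 1 higher at an unadjusted p under 0.05. In Model against Normal each of these tools called 1 of the 9, which was higher. All 7 smooth muscle markers were measured, with summed levels of 2019 to 2877 CPM in Atorvastatin, 2229 to 4294 CPM in Model and 3672 to 5183 CPM in Normal. In Atorvastatin against Normal 6 of them had a lower level at an unadjusted p under 0.05 and were called by DESeq2, and 0 by edgeR or limma-voom. Of 8 neutrophil and monocyte markers, 6 rose in Model against Normal and 4 in Atorvastatin against Normal, with summed levels of 77.7 to 214 CPM in Atorvastatin, 125 to 207 CPM in Model and 24.1 to 42.9 CPM in Normal; DESeq2 called 7 and 6 of them and limma-voom 3 and 1. Of 8 fibroblast markers, 5 rose in Model against Normal and 4 in Atorvastatin against Normal (6 and 6 by DESeq2, 5 and 0 by limma-voom), with summed levels of 1029 to 1654 CPM in Atorvastatin, 1050 to 1920 CPM in Model and 547 to 716 CPM in Normal. Over all genes edgeR called 4.37% higher and 1.1% lower in Model against Normal, and 1.34% higher and 0.347% lower in Atorvastatin against Normal. The part of the marker differences between the groups in the values of the conjugation genes was not tested. In bulk tissue, fewer cells of a type and less RNA per cell cannot be told apart.

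All levels are given as CPM on library sizes scaled by TMM, and the tests are edgeR's quasi-likelihood test with Benjamini-Hochberg adjustment over the 16152 tested genes at a threshold of 0.05, named the edgeR adjusted p. Different genes are compared in CPM per kilobase of the annotated transcript with the longest coding sequence. For the Ugt1a locus the length was the median over its 9 genes, 2227 bases, and its place in the order rests on this choice. The transcript of Ugt1a7c, the longest of them, had 3302 bases. On this scale the Atorvastatin colon had Ugt1a at 246, Gsto1 at 241 and Gstp1 at 238. The Model colon had Gsto1 at 258, Gstp1 at 235 and Ugt1a at 137 CPM per kilobase. The Normal colon had Ugt1a at 229, Gsto1 at 221 and Gstp1 at 197 CPM per kilobase, followed by Gstm1 at 154, Ugt2b34 at 139, Sult1a1 at 127 and Gstp2 at 79.9. By library, the Normal values per kilobase lay between 215 and 252 for Ugt1a and between 198 and 251 for Gsto1, so these neighbours in the order did not differ beyond their spread.

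Of the 21 units that were not tested, 14 had 0 counts in every library: Sult2a1 to Sult2a7, Sult3a1, Sult3a2, Ugt2a1, Ugt2a2, Ugt2b37, Ugt3a1 and Ugt3a2. One read pair was worth about 4 estimated counts, so a count of 0 allows up to 12 estimated counts, or 0.132 to 0.175 CPM depending on the library, and this limit covers counting error only. The 7 others had few counts. Sult6b2 had 656 estimated counts in Model 3 and at most 6 in each other library, and Ugt2a3 had 84 in Model 3, 5 in Model 2 and 0 in the rest. Model 3 is the library with small-intestinal transcripts, and their part in these counts was not tested. Sult1c1 had 9, 0 and 5 estimated counts in Atorvastatin, 4, 9 and 17 in Model and 0 in each Normal library, while Gstt4, Sult1e1, Sult2a8 and Ugt2b1 reached at most 32 in any library.

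**Figure D1:**
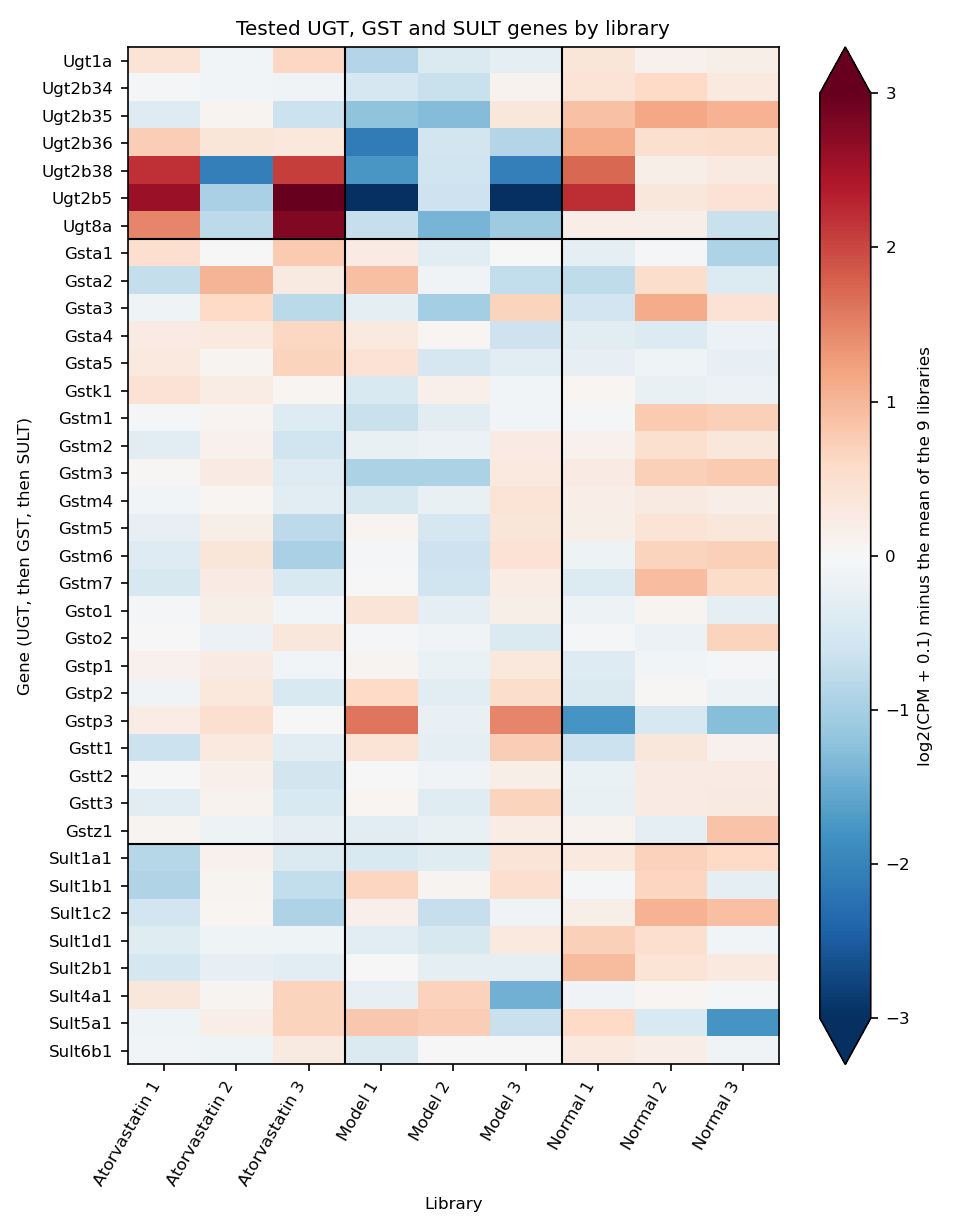
Colour gives log2(CPM + 0.1) minus the mean of the 9 libraries for each of the 37 tested units (rows, UGT then GST then SULT) in each library (columns, Atorvastatin, Model, Normal). The UGT rows are blue to pale in the Model columns apart from a light red Ugt2b35 in Model 3, Gstp3 is darkest red in Model 1 and Model 3, and Ugt2b5, Ugt2b38 and Ugt8a are dark red in Atorvastatin 1 and Atorvastatin 3 but not in Atorvastatin 2.

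In the Model colon, set against the Normal colon, 1 of the 37 tested conjugation genes passed the test: Gstp3, a pi-class glutathione transferase, rose about 4.82-fold. All 7 tested UGT units, which include the Ugt1a locus and the colon's main Ugt2b gene Ugt2b34, had lower values in every Model library than in any Normal library, without passing the adjusted threshold. Of these 7, the 4 units Ugt2b5, Ugt2b36, Ugt2b38 and Ugt8a passed the filter on low counts only through groups in which they were higher than in Model, so that their direction was fixed in part by the filter. The 7 tested mu-class Gstm genes also had negative log2 fold changes, the 3 pi-class genes had positive ones, and the alpha, theta and omega classes were mixed. Among the sulfotransferases 6 of 8 had negative log2 fold changes and none passed. Across all genes tested 5.47% were called in this comparison (4.37% higher and 1.1% lower), so 1 of 37 is near or under that background. Groups did not overlap for 1 conjugation gene in the higher and 10 in the lower direction, 4 of the 10 being these units, beside 14% and 11.7% of all genes. Of the 37, 24 log2 fold changes were below 0, again with these 4 units among them, beside 50.1% of all genes. The median log2 fold change of the 37 was -0.36, beside -0.00 over all genes.

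Gstp3 had 16.2, 4.47 and 14.6 CPM in the Model libraries, against 1.48, 3.75 and 2.09 CPM in the Normal libraries. Every Model library lay above every Normal library, but Model 2 did so by less than 1 CPM while Model 1 and Model 3 stood well clear. The means were 11.8 ± 6.37 CPM in Model and 2.44 ± 1.18 CPM in Normal (SD, n = 3 each), and the log2 fold change was 2.27 ± 0.50 (SE, edgeR adjusted p = 0.0352). This call ended under limma-voom (adjusted p = 0.0880), with only the 2 groups compared (0.0778), and when any of Normal 1 (edgeR adjusted p = 0.102), Normal 3 (0.152), Model 1 (0.106), Model 3 (0.0601), Atorvastatin 1 (0.0531), Atorvastatin 2 (0.0548) or Atorvastatin 3 (0.0562) was left out, with log2 fold changes of 1.96 to 2.27 in all of these. Over its 20 alternatives the adjusted p of Gstp3 lay between 9.04e-05 and 0.152 and passed in 10.

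The 3 pi-class genes lie side by side on chromosome 19, and the deposited table places Gstp3 at 4107477 to 4109446, Gstp2 at 4090285 to 4096023 and Gstp1 at 4085407 to 4087985; the table names no build, and mm39 is the mouse build in the submitters' processing notes. Gstp1 and Gstp2 have 98.1% identical coding sequences with an identical run of 300 bases, so reads may be shared between these rows, while Gstp3 is 73.23% identical to Gstp2 with no identical run over 35 bases. Gstp1 had 193, 159 and 226 CPM in the Model libraries, against 138, 172 and 174 CPM in the Normal libraries. Gstp2 had 109, 56.8 and 104 CPM in Model and 53.0, 73.8 and 64.4 CPM in Normal. Model and Normal overlapped for both of these genes, Model 2 being the lowest Model library in each, and their log2 fold changes of 0.25 ± 0.16 and 0.49 ± 0.27 did not pass (SE, edgeR adjusted p = 0.417 and 0.340).

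The start regions of the 3 genes are shown because the near-identical pair and Gstp3 differ there as well. Each runs from 250 bases before to 50 bases after the start on the minus strand, from RefSeq on GRCm38.p6, with Gstp1 at chr19:4037863-4038162, Gstp2 at chr19:4042172-4042471 and Gstp3 at chr19:4059398-4059697. Capitals mark matches on either strand to TGANTCA, the core bound by AP-1, or to GCGTG, the core bound by the aryl hydrocarbon receptor; TGACNNNGC, the antioxidant response core bound by Nrf2, which can overlap TGANTCA, was searched as well.
Gstp1: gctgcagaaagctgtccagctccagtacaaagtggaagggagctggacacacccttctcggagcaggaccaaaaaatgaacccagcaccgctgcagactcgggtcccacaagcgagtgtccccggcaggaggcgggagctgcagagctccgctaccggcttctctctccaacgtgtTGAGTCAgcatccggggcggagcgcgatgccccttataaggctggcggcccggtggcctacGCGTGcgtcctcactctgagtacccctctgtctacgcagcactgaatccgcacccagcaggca
Gstp2: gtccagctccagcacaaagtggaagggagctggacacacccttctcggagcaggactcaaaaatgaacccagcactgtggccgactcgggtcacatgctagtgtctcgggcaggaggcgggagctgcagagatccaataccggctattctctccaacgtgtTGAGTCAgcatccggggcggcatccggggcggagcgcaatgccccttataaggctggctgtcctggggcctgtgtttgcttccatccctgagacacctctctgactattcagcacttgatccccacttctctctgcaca
Gstp3: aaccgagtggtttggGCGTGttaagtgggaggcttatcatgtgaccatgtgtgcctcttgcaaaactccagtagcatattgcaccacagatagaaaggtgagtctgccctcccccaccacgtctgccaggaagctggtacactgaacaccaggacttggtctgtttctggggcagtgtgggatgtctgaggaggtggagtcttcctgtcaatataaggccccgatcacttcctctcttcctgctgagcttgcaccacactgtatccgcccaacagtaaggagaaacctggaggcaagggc
TGANTCA occurred in the windows of Gstp1 and Gstp2 and not in that of Gstp3, and GCGTG in those of Gstp1 and Gstp3. TGACNNNGC occurred in none of the 3. Of 32851 RefSeq windows of this length 7.81% hold TGANTCA, 32.39% GCGTG and 12.39% TGACNNNGC, and of the 68 windows of conjugation genes, which matched 57 of the 66 rows, 19.12%, 20.59% and 4.41% do. These matches are a description of the letters, not of binding.

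Of the UGT units, the Ugt1a locus (chromosome 1, 87983110 to 88147724 in the table), whose products conjugate bilirubin, phenols and many drugs, had 237, 321 and 355 CPM in the Model libraries, against 561, 478 and 488 CPM in the Normal libraries. The groups did not overlap, Model 1 being the lowest of all libraries. The means were 304 ± 60.5 CPM in Model and 509 ± 45.4 CPM in Normal (SD, n = 3 each), with a log2 fold change of -0.74 ± 0.22 (SE, edgeR adjusted p = 0.0872). Ugt2b34, a member of the subfamily that conjugates steroids and bile acids, had 220, 195 and 337 CPM in the Model libraries, against 417, 469 and 384 CPM in the Normal libraries. Model 3 came nearest to the Normal libraries and the groups did not overlap, with a log2 fold change of -0.75 ± 0.20 (SE, edgeR adjusted p = 0.0666). Its neighbour Ugt2b35 had 3.48, 3.27 and 10.3 CPM in Model and 15.1, 18.3 and 17.0 CPM in Normal. Model 1 and Model 2 were lowest, Model 3 lay between them and the Normal libraries, and the log2 fold change was -1.56 ± 0.43 (SE, edgeR adjusted p = 0.0711). Without Model 3, the library with small-intestinal transcripts, Ugt2b34 and Ugt2b35 passed at log2 fold changes of -1.03 and -2.31 (edgeR adjusted p = 0.00792 and 0.00363); DESeq2 called these and Ugt1a (adjusted p = 0.00548, 0.00337 and 0.00931), and limma-voom called Ugt2b35 (0.0283).

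The other 4 tested UGT units were near the detection limit in Model: Ugt8a, which makes galactosylceramide and does not glucuronidate, and 3 Ugt2b genes that are described here after their values were seen. On library sizes before TMM scaling, each reached the filter of 0.127 CPM in all 3 Normal libraries and in 1 Model library, so they were tested only through groups in which they were higher, and their lower Model values do not count as support for the values of the other UGT units. Ugt2b5 had 0.0354, 0.840 and 0 CPM in Model and 6.66, 1.73 and 1.85 CPM in Normal. Ugt2b36 had 0, 0.195 and 0.131 CPM in Model and 0.823, 0.501 and 0.514 CPM in Normal. Both lay lower in every Model library, with log2 fold changes of -3.52 and -2.48 that did not pass (edgeR adjusted p = 0.201 and 0.182). Ugt2b38, whose coding sequence is 97.04% identical to that of Ugt2b5 with an identical run of 443 bases, had at most 0.170 CPM in Model and at least 0.363 CPM in Normal. The summed level of all UGT units was 461, 521 and 704 CPM in Model and 1003, 968 and 893 CPM in Normal, and these sums did not overlap. By edgeR none of the 7 tested UGT units passed, and DESeq2 called 3 and limma-voom 1. At an unadjusted p under 0.05, a level at which 7.86% of all genes were lower and 13.1% higher (20.9% in all), Ugt1a, Ugt2b34 and Ugt2b35 were lower, as were 2 of the 4 units whose direction the filter fixed in part.

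**Figure D2:**
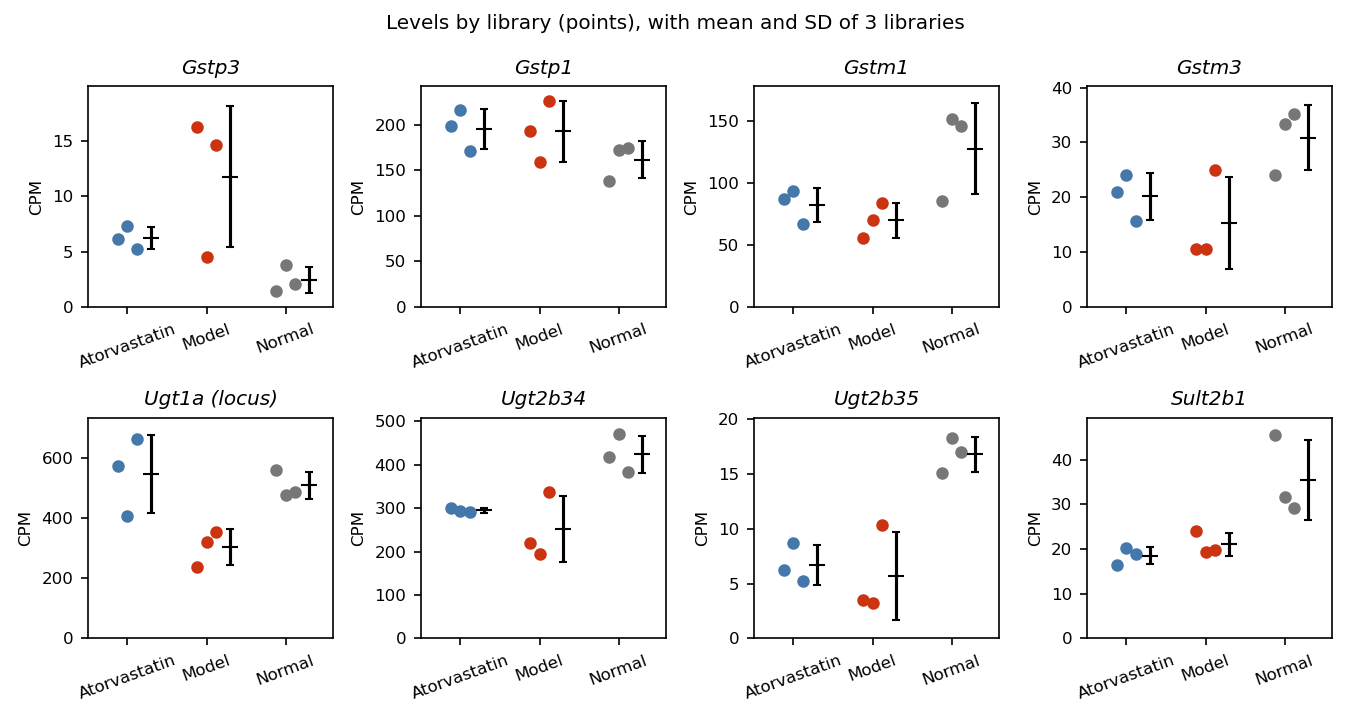
Points give the CPM of each library for 8 conjugation genes in Atorvastatin (blue), Model (red) and Normal (grey), and the bars beside them the mean and SD of 3 libraries. Gstp3 is spread from 4.47 to 16.2 CPM in Model, Ugt1a, Ugt2b34, Ugt2b35 and Gstm1 lie lower in every Model library than in any Normal library, and Sult2b1 lies between 16.4 and 20.1 CPM in Atorvastatin and above 29 CPM in Normal.

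Among the mu-class transferases, which conjugate a broad range of electrophiles, Gstm1 had 55.7, 69.7 and 83.7 CPM in the Model libraries, against 85.3, 152 and 145 CPM in the Normal libraries. The groups only just did not overlap, since Normal 1 lay next to Model 3, and the log2 fold change was -0.87 ± 0.24 (SE, edgeR adjusted p = 0.0727). Without Normal 1 it was -1.09 and passed (edgeR adjusted p = 0.0381), and DESeq2 called the gene (0.00950). Gstm3, described after its values were seen, had 10.5, 10.5 and 25.03 CPM in Model and 24.1, 33.4 and 35.2 CPM in Normal. Model 3 overlapped with Normal 1 and the log2 fold change of -1.01 ± 0.35 did not pass (SE, edgeR adjusted p = 0.133), while without Model 3 it was -1.56 and passed (0.0104), as it did by DESeq2 (0.0348). The 7 Gstm genes had log2 fold changes of -1.01 to -0.27 with a median of -0.48. Gstm1 and Gstm3 have an identical coding run of 112 bases, so reads may be shared between these rows. Apart from Gstm1, the longest identical run of a Gstm gene with its nearest relative was 17 to 47 bases. In summed CPM the mu class had 164, 169 and 243 in Model and 227, 336 and 321 in Normal, with overlap. Gsto1, an omega-class enzyme that reduces dehydroascorbate and the GST with the highest group means per kilobase (by library, Gstp1 lay above it in Atorvastatin 1, Model 3 and Normal 3), had 368, 232 and 316 CPM in Model and 253, 297 and 234 CPM in Normal, which overlapped (log2 fold change 0.22 ± 0.19, edgeR adjusted p = 0.542). Over all GST genes the sum was 1095, 829 and 1190 CPM in Model and 876, 1148 and 1051 CPM in Normal, and 11 of 22 tested log2 fold changes were below 0, with a median of -0.04.

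Among the sulfotransferases, Sult2b1, which sulfates cholesterol and related 3-hydroxysteroids (chromosome 7, 45379407 to 45434093 in the table), had 24.0, 19.2 and 19.8 CPM in the Model libraries, against 45.6, 31.6 and 29.1 CPM in the Normal libraries. The groups did not overlap, Normal 1 being far the highest, and the log2 fold change of -0.75 ± 0.19 did not pass (SE, edgeR adjusted p = 0.0552); it passed with upper-quartile scaling (0.0482), with only genes of at least 5 CPM in 3 libraries (0.0459) and by DESeq2 (0.00618). Sult1c2, a sulfotransferase of small phenols, had 14.1, 7.87 and 11.8 CPM in Model and 14.4, 26.1 and 24.0 CPM in Normal. Model 1 and Normal 1 nearly met, and the log2 fold change was -0.94 ± 0.33 (SE, edgeR adjusted p = 0.140, DESeq2 adjusted p = 0.0476). Sult1a1, the phenol sulfotransferase and the most abundant SULT per kilobase, had 82.8, 87.7 and 148 CPM in Model and 137, 183 and 171 CPM in Normal. Model 3 overlapped with Normal 1, and the log2 fold change was -0.62 ± 0.29 (SE, edgeR adjusted p = 0.253). Sult1d1, which sulfates catecholamines and was chosen after its values were seen, had 33.1, 29.7 and 50.6 CPM in Model and 68.1, 59.0 and 38.9 CPM in Normal, with overlap (log2 fold change -0.55 ± 0.24, edgeR adjusted p = 0.240). By edgeR none of the 8 tested SULT genes passed, with 2 lower at an unadjusted p under 0.05, 2 called by DESeq2 and none by limma-voom, and their median log2 fold change was -0.43.

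In the Atorvastatin colon, set against the Model colon, no conjugation gene passed the test, and neither did any other gene (0% called of 16152). The Ugt1a locus was higher in every Atorvastatin library than in any Model library, while the GST genes were mixed and Sult1b1 was lower in every Atorvastatin library. At an unadjusted p under 0.05, a level that 11.8% of all genes passed (5.96% higher and 5.86% lower), Ugt1a was higher and Sult1b1 was lower. The units Ugt2b5, Ugt2b36, Ugt2b38 and Ugt8a were higher at that level too, but they had passed the filter only through groups other than Model, so that their direction over Model was fixed in part and is no support. This comparison shares its Model libraries, with the opposite sign, with that of Model against Normal. DESeq2 called 2 conjugation genes, Ugt1a and Ugt8a, among 323 genes, and limma-voom called no gene. Groups did not overlap for 2 conjugation genes in the higher direction (Ugt1a and Ugt2b36, one of these units) and 1 in the lower, beside 7.89% and 7.7% of all genes. The median log2 fold change of the 37 was 0.02, beside -0.03 over all genes.

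The Ugt1a locus had 574, 407 and 663 CPM in the Atorvastatin libraries, against 237, 321 and 355 CPM in the Model libraries. The groups did not overlap, and Atorvastatin 2 lay nearest to the Model libraries. The means were 548 ± 130 CPM in Atorvastatin and 304 ± 60.5 CPM in Model (SD, n = 3 each), with a log2 fold change of 0.85 ± 0.22 (SE, unadjusted p = 0.00346, edgeR adjusted p = 0.324; DESeq2 adjusted p = 0.0153). Hoxb13 was at 1.29 and 0.406 CPM in Atorvastatin 1 and Atorvastatin 3, the libraries with the highest Ugt1a levels, and at 120 CPM in Atorvastatin 2. It is 1 of 6 listed distal colon Hox genes, of which 4 had negative and 2 positive log2 fold changes in Atorvastatin over Model. The part of such region markers in this difference was not tested.

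Within the locus, the rows Ugt1a7c, Ugt1a6a and Ugt1a1 held 28.6% to 56.2%, 22.1% to 35.8% and 11.4% to 28.3% of the counts over the 9 libraries, and each of the other 6 rows held at most 6.44%. How the deposited counts divided shared exons among these rows is not given in the sources used here. The row values are therefore a description of the table and are not read as forms of the enzyme. For Ugt1a6a and Ugt1a7c the transcripts compared have identical coding sequences, and other transcripts of these genes were not compared. The Ugt1a6a row had 205, 97.6 and 233 CPM in Atorvastatin, against 70.03, 70.9 and 79.9 CPM in Model and 158, 115 and 148 CPM in Normal. The Ugt1a1 row had 137, 73.3 and 187 CPM in Atorvastatin, against 26.9, 62.5 and 53.2 CPM in Model and 103, 118 and 67.5 CPM in Normal. For both rows every Atorvastatin library lay above every Model library. The Ugt1a7c row had 210, 196 and 190 CPM in Atorvastatin, against 129, 166 and 199 CPM in Model and 245, 229 and 250 CPM in Normal. Its Atorvastatin and Model libraries overlapped.

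**Figure D3:**
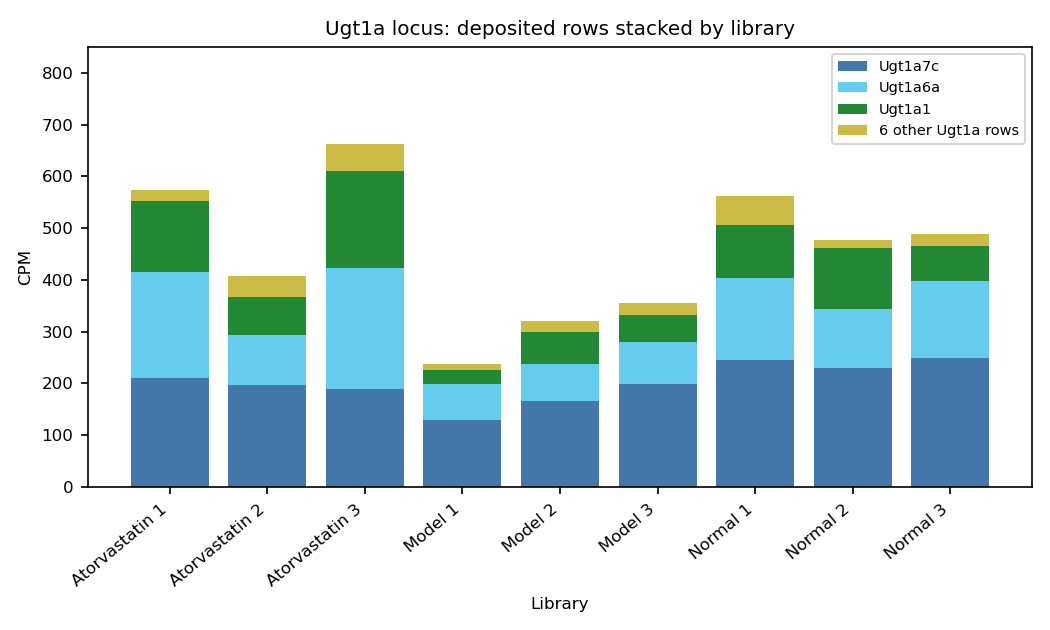
Stacked bars give the CPM of the deposited Ugt1a rows in each library, with the 6 smallest rows joined. The total is 574, 407 and 663 CPM in Atorvastatin 1 to 3 and 237, 321 and 355 CPM in Model 1 to 3, and the Ugt1a6a and Ugt1a1 segments are longest in Atorvastatin 1 and Atorvastatin 3.

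Among the conjugation genes, the UGT units that were near the detection limit in Model had the largest fold changes of this comparison and the largest spread. Ugt8a had 1.24, 0.181 and 3.25 CPM in the Atorvastatin libraries, against 0.200, 0.0852 and 0.131 CPM in the Model libraries. Atorvastatin 1 and Atorvastatin 3 were high, Atorvastatin 2 lay within the Model range, and the log2 fold change of 3.47 ± 0.95 did not pass (SE, edgeR adjusted p = 0.324; DESeq2 adjusted p = 0.0173). Ugt2b5 had 8.68, 0.646 and 14.2 CPM in Atorvastatin, against 0.0354, 0.840 and 0 CPM in Model. Ugt2b38, with which it may share reads, had 1.77, 0 and 1.62 CPM in Atorvastatin, against 0.0236, 0.170 and 0 CPM in Model. Both were high in the same 2 Atorvastatin libraries and overlapped with Model through Atorvastatin 2 (log2 fold changes 4.73 ± 1.51 and 4.07 ± 1.65, edgeR adjusted p = 0.331 and 0.386). Ugt2b36 had 0.618, 0.453 and 0.430 CPM in Atorvastatin, against 0, 0.195 and 0.131 CPM in Model, without overlap (log2 fold change 2.19 ± 0.96, edgeR adjusted p = 0.420).

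Region markers were uneven among the same libraries. Atorvastatin 1 and Atorvastatin 3, in which Ugt2b5, Ugt2b38 and Ugt8a were high, had summed levels of the 6 distal colon Hox genes of 14.7 and 17.5 CPM, against 157 CPM in Atorvastatin 2, 53.9 to 299 CPM in Model and 53.8 to 180 CPM in Normal. Hoxd12 was at 0 in both of these libraries, and Hoxd13 was at 0 and 0.107 CPM. The list was not uniform. Of the 6 genes, 4 had negative and 2 positive log2 fold changes in Atorvastatin over Model, and likewise over Normal. The highest over Normal was 2.13, and 1 gene was higher in every Atorvastatin library than in any Normal library. By edgeR, DESeq2 and limma-voom none of the 6 passed in any comparison. Normal 1, the Normal library with the highest Ugt2b5 level, also had the lowest summed level of its group. Whether the region of colon sampled has a part in these UGT values was not tested. Of the 5 Ugt2b units tested, the abundant Ugt2b34 had 300, 293 and 290 CPM in Atorvastatin, and Ugt2b35 had 6.24, 8.69 and 5.21 CPM. Ugt2b34 differed little among these libraries, and Ugt2b35 was highest in Atorvastatin 2. The log2 fold changes of Ugt2b34 and Ugt2b35 over Model, 0.23 and 0.24, did not pass (edgeR adjusted p = 0.710 and 0.886).

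**Figure D4:**
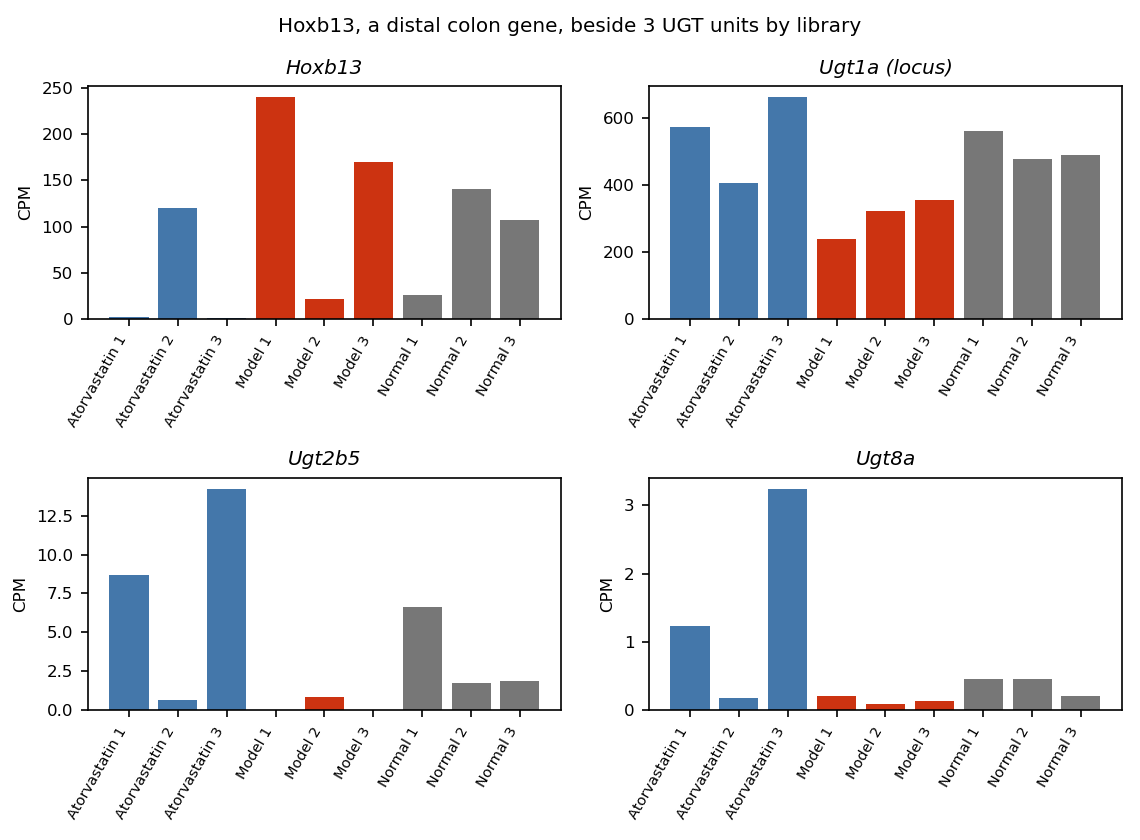
Bars give the CPM of Hoxb13, the Ugt1a locus, Ugt2b5 and Ugt8a in each library (Atorvastatin blue, Model red, Normal grey), each panel with its own axis from 0. Hoxb13 is at 1.29 and 0.406 CPM in Atorvastatin 1 and Atorvastatin 3, where the Ugt units reach their highest levels, and at 120 CPM in Atorvastatin 2. It is 1 of 6 listed distal colon Hox genes, of which 4 had negative and 2 positive log2 fold changes in Atorvastatin over Model.

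None of the GST genes passed between Atorvastatin and Model, and those with the smallest p were Gstk1 and Gsta4. Gsta4, an alpha-class enzyme that conjugates the lipid peroxidation product 4-hydroxynonenal, had 39.8, 41.4 and 52.0 CPM in the Atorvastatin libraries, against 41.5, 34.8 and 21.9 CPM in the Model libraries. Gstk1, the kappa-class enzyme of mitochondria and peroxisomes, had 47.3, 41.1 and 36.5 CPM in Atorvastatin, against 25.4, 38.9 and 33.3 CPM in Model. Both overlapped between the groups, and their log2 fold changes of 0.44 ± 0.22 and 0.36 ± 0.18 did not pass (SE, edgeR adjusted p = 0.473 and 0.469). Gstp3 had 6.09, 7.31 and 5.27 CPM in Atorvastatin, against 16.2, 4.47 and 14.6 CPM in Model. The Atorvastatin libraries lay close together and inside the Model range, and the log2 fold change of -0.92 ± 0.48 did not pass (SE, edgeR adjusted p = 0.489). Of the 22 GST genes tested none passed by edgeR, DESeq2 or limma-voom or had an unadjusted p under 0.05, with a median log2 fold change of -0.04.

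Sult1b1, which sulfates thyroid hormones and phenols, had 44.9, 88.7 and 50.6 CPM in the Atorvastatin libraries, against 131, 88.8 and 119 CPM in the Model libraries. Atorvastatin 2 and Model 2 almost met at the boundary of groups that otherwise stood apart, and the log2 fold change was -0.88 ± 0.31 (SE, unadjusted p = 0.0193, edgeR adjusted p = 0.357). Sult4a1, a sulfotransferase best known from brain, had 4.34, 3.60 and 5.46 CPM in Atorvastatin and 2.82, 5.49 and 1.18 CPM in Model, with overlap (log2 fold change 0.50 ± 0.46, edgeR adjusted p = 0.733). Sult2b1 had 16.4, 20.1 and 19.0 CPM in Atorvastatin, which overlapped with its Model values, and its log2 fold change was -0.18 ± 0.19 (SE, edgeR adjusted p = 0.768). By edgeR none of the 8 tested SULT genes passed, Sult1b1 alone had an unadjusted p under 0.05, and neither DESeq2 nor limma-voom called any.

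In the Atorvastatin colon, set against the Normal colon, 1 of the 37 tested conjugation genes passed the test: Sult2b1 fell to 0.522 of its Normal level. The 4 tested Sult1 genes and the 7 mu-class Gstm genes had negative log2 fold changes, 4 of the 5 alpha-class Gsta genes had positive ones, and the UGT units were split. Across all genes 1.69% were called (1.34% higher and 0.347% lower), and groups did not overlap for 5 conjugation genes in the higher and 8 in the lower direction, beside 13.5% and 11.2% of all genes. The median log2 fold change of the 37 was -0.21, beside 0.01 over all genes, and 22 of the 37 were below 0, beside 48.7% of all genes. This comparison shares its Atorvastatin libraries with the comparison against Model and its Normal libraries with the comparison of Model against Normal.

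Sult2b1 had 16.4, 20.1 and 19.0 CPM in the Atorvastatin libraries, against 45.6, 31.6 and 29.1 CPM in the Normal libraries. Every Atorvastatin library lay below every Normal library. The means were 18.5 ± 1.91 CPM in Atorvastatin and 35.4 ± 8.88 CPM in Normal (SD, n = 3 each), with a log2 fold change of -0.94 ± 0.19 (SE, edgeR adjusted p = 0.0482). The call ended under limma-voom (adjusted p = 0.0655), with only the 2 groups compared (edgeR adjusted p = 0.0588), and on leaving out any library, with Normal 1 (0.120), Normal 2 (0.0848), Normal 3 (0.0924), Model 1 (0.0623), Model 2 (0.0574), Model 3 (0.0521), Atorvastatin 1 (0.171), Atorvastatin 2 (0.0753) or Atorvastatin 3 (0.148) removed, while the log2 fold change in these lay between -1.07 and -0.71. It passed in 7 of its 20 alternatives.

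Sult1c2 had 8.46, 13.2 and 6.65 CPM in the Atorvastatin libraries, against 14.4, 26.1 and 24.0 CPM in the Normal libraries. Sult1a1 had 62.2, 123 and 83.9 CPM in Atorvastatin, against 137, 183 and 171 CPM in Normal. Neither overlapped, Atorvastatin 2 being the highest Atorvastatin library and Normal 1 the lowest Normal library for both, and their log2 fold changes of -1.19 ± 0.33 and -0.87 ± 0.29 did not pass (SE, edgeR adjusted p = 0.118 and 0.185; DESeq2 adjusted p = 0.0111 and 0.0470). Sult1d1 had 32.1, 37.7 and 37.7 CPM in Atorvastatin and 68.1, 59.0 and 38.9 CPM in Normal, without overlap (log2 fold change -0.63 ± 0.24, edgeR adjusted p = 0.268). The summed SULT level was 170, 288 and 206 CPM in Atorvastatin and 353, 436 and 337 CPM in Normal, and these sums did not overlap.

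Of the UGT units, Ugt1a had 574, 407 and 663 CPM in Atorvastatin and 561, 478 and 488 CPM in Normal, with the Normal values inside the Atorvastatin range (log2 fold change 0.11 ± 0.22, edgeR adjusted p = 0.876). The standard error leaves room for a difference in either direction. Ugt2b34 had 300, 293 and 290 CPM in Atorvastatin, against 417, 469 and 384 CPM in Normal. Ugt2b35 had 6.24, 8.69 and 5.21 CPM in Atorvastatin, against 15.1, 18.3 and 17.0 CPM in Normal. Both lay lower in every Atorvastatin library, with log2 fold changes of -0.52 ± 0.20 and -1.32 ± 0.42 that did not pass (SE, edgeR adjusted p = 0.260 and 0.175), although Ugt2b35 passed by DESeq2 (0.0290), with only the 2 groups compared (0.0353) and without Model 3 (0.0223). By edgeR none of the 7 tested UGT units passed, with 1 higher and 2 lower at an unadjusted p under 0.05 (15.2% of all genes passed that level, 8.85% higher and 6.33% lower), 1 called by DESeq2 and none by limma-voom, and their median log2 fold change was 0.11.

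Among the alpha-class transferases, Gsta4 had 39.8, 41.4 and 52.0 CPM in the Atorvastatin libraries, against 26.4, 25.4 and 29.9 CPM in the Normal libraries. Gsta1, an alpha-class enzyme with wide peroxidase and conjugating activity, had 41.2, 29.6 and 50.5 CPM in Atorvastatin, against 24.1, 28.6 and 15.4 CPM in Normal. Gsta4 stood apart in all 3 Atorvastatin libraries and Gsta1 only narrowly in Atorvastatin 2, and neither log2 fold change, 0.71 ± 0.22 and 0.83 ± 0.27, passed (SE, edgeR adjusted p = 0.166 and 0.175); Gsta4 passed without Model 3 (0.0475). Gsta1 has 97.61% of its coding sequence identical to Gsta2, so reads may be shared, but Gsta2 stayed at or under 0.487 CPM. The 5 alpha-class genes summed to 102, 104 and 117 CPM in Atorvastatin, 95.3, 69.6 and 83.9 CPM in Model and 65.5, 99.1 and 74.0 CPM in Normal. The lowest Atorvastatin sum lay above the highest Model and Normal sums. Gstp3 had 6.09, 7.31 and 5.27 CPM in Atorvastatin and 1.48, 3.75 and 2.09 CPM in Normal, without overlap and with a log2 fold change of 1.35 ± 0.49 that did not pass (SE, edgeR adjusted p = 0.225). The 7 mu-class genes had log2 fold changes of -0.70 to -0.33 with a median of -0.61, and Gstm1 at 86.6, 93.1 and 67.1 CPM in Atorvastatin overlapped with Normal through Normal 1 (log2 fold change -0.63 ± 0.24, edgeR adjusted p = 0.252). Of the 22 GST genes none passed by edgeR, DESeq2 or limma-voom, with 3 higher and 2 lower at an unadjusted p under 0.05.

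**Figure D5:**
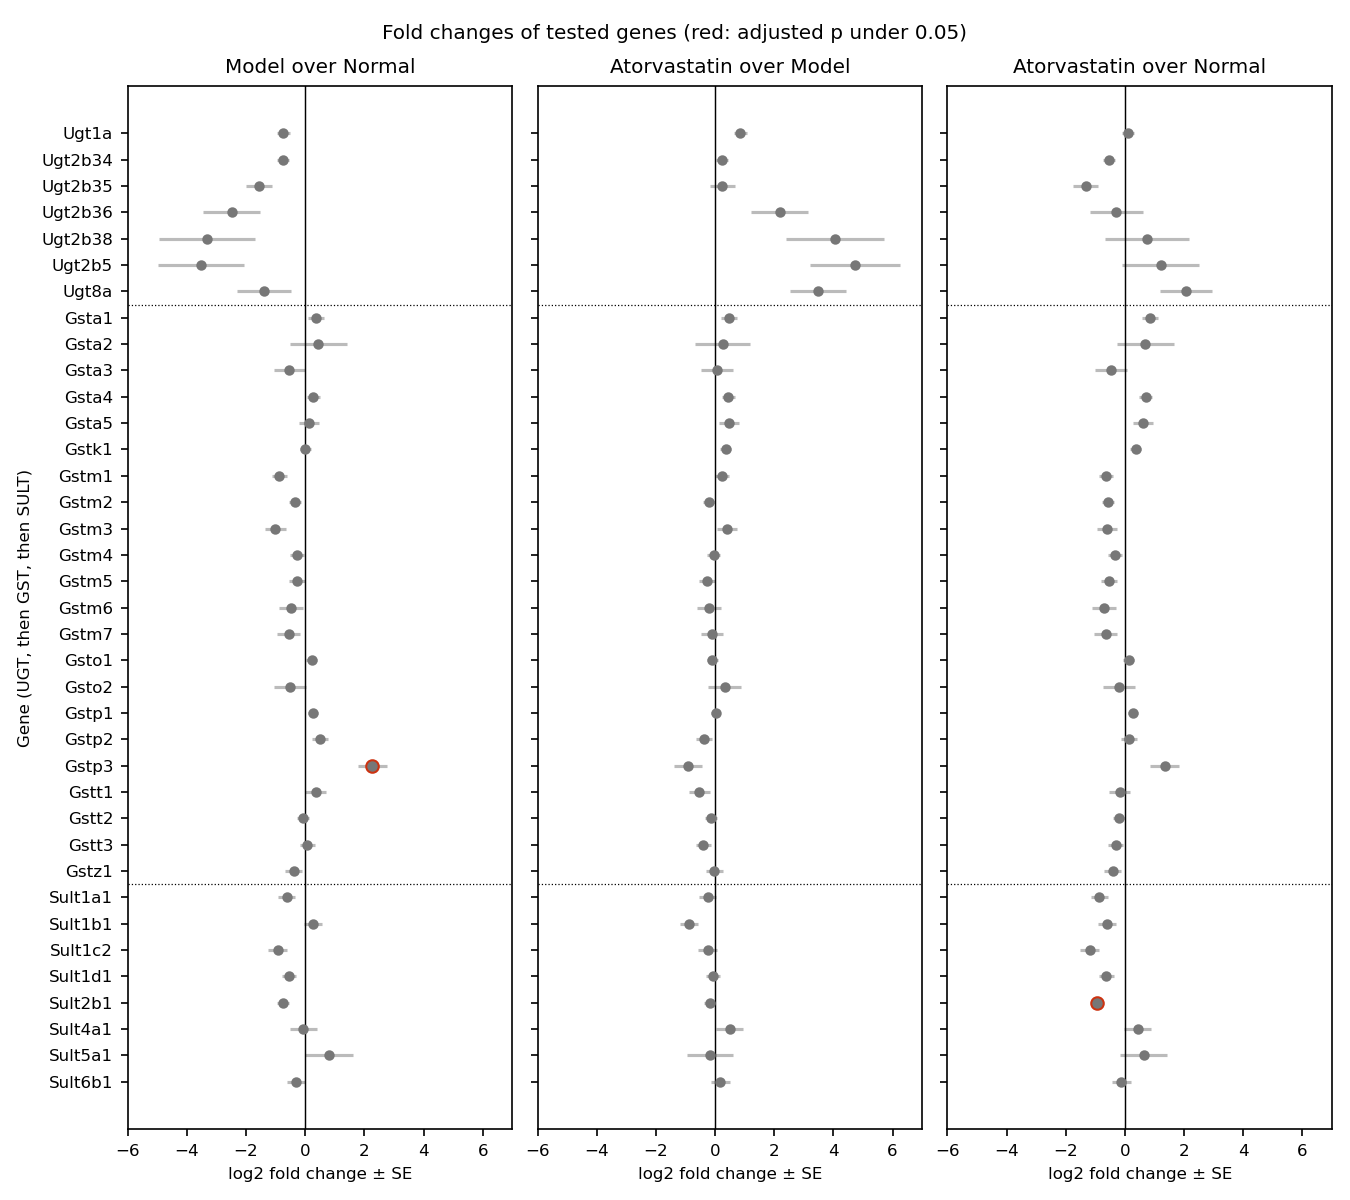
Points give log2 fold changes and bars their SE for the 37 tested conjugation genes in the 3 comparisons, with red for an edgeR adjusted p under 0.05. Gstp3 at 2.27 in Model over Normal and Sult2b1 at -0.94 in Atorvastatin over Normal are the red points, and the widest bars are those of Ugt2b5 and Ugt2b38. Each pair of comparisons shares 3 libraries, so that their points are not independent.

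The genes that supply and use the same cofactors were taken from lists and are described with the same test. Over all genes, 20.9% had an unadjusted p under 0.05 in Model against Normal, 11.8% in Atorvastatin against Model and 15.2% in Atorvastatin against Normal. In the same order DESeq2 called 12.2%, 2% and 6.59% of all genes, and limma-voom 4.35%, 0% and 0.873%. In the PAPS and sulfate list, 1 of 8 genes passed in Model against Normal and in Atorvastatin against Normal, beside 1.1% and 0.347% of all genes called lower. Papss1, an enzyme that makes the sulfate donor PAPS, fell in Model and in Atorvastatin against the same Normal libraries. Papss1 had 84.5, 93.0 and 86.6 CPM in Atorvastatin, 92.3, 71.6 and 94.4 CPM in Model and 145, 141 and 150 CPM in Normal. All 6 Atorvastatin and Model libraries lay below all 3 Normal libraries, with little spread inside Normal. Its log2 fold change was -0.76 ± 0.12 in Model over Normal (SE, edgeR adjusted p = 0.0123), 0.03 ± 0.12 in Atorvastatin over Model (0.957) and -0.72 ± 0.12 in Atorvastatin over Normal (0.0244). The call of Model against Normal ended without Normal 3 (edgeR adjusted p = 0.0608), and that of Atorvastatin against Normal without Normal 1 (0.0876), Normal 2 (0.0593), Normal 3 (0.111), Atorvastatin 1 (0.0931) or Atorvastatin 3 (0.1003). Papss2, which also makes PAPS, is named after its values were seen. It had 304, 242 and 321 CPM in Atorvastatin, 212, 245 and 259 CPM in Model and 276, 249 and 240 CPM in Normal. Its log2 fold changes over Normal were -0.097 ± 0.15 in Model and 0.18 ± 0.15 in Atorvastatin and did not pass (SE, edgeR adjusted p = 0.761 and 0.634). In Atorvastatin against Model none of the 8 passed by edgeR, DESeq2 or limma-voom, with 1 at an unadjusted p under 0.05. The list's median log2 fold changes were -0.08, -0.07 and -0.18 in Model over Normal, Atorvastatin over Model and Atorvastatin over Normal.

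In the list of UDP-glucuronic acid supply none of 6 genes passed by edgeR in any comparison, with 1, 2 and 1 at an unadjusted p under 0.05 in the same order of comparisons, and DESeq2 called 1 (Ugdh, in Model against Normal) and limma-voom none. Ugdh, which makes UDP-glucuronic acid and is named after its values were seen, had 312, 251 and 343 CPM in Atorvastatin, 238, 185 and 238 CPM in Model and 329, 395 and 311 CPM in Normal. Every Model library lay below every Atorvastatin and every Normal library, and the log2 fold changes were -0.65 ± 0.17 in Model over Normal (SE, edgeR adjusted p = 0.0656), 0.45 ± 0.17 in Atorvastatin over Model (0.367) and -0.19 ± 0.17 in Atorvastatin over Normal (0.667).

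In the glutathione list 3 of 16 genes rose in Model against Normal by edgeR, beside 4.37% of all genes called higher, and edgeR called 0 lower. DESeq2 called 4 and limma-voom 3, with Dpep1, which was lower, among both. Ggt1, the cell-surface enzyme that starts glutathione breakdown, had 14.9, 42.5 and 34.6 CPM in the Model libraries, against 1.38, 6.25 and 2.44 CPM in the Normal libraries. Anpep, an aminopeptidase that splits the cysteinylglycine left by that enzyme, had 19.8, 33.7 and 152 CPM in Model, against 6.63, 9.32 and 8.004 CPM in Normal. Ggt1 was highest in Model 2 and Anpep in Model 3, the libraries with acinar and small-intestinal transcripts, and the part of these transcripts was not tested. The log2 fold changes were 3.19 ± 0.57 for Ggt1 and 3.10 ± 0.67 for Anpep (SE, edgeR adjusted p = 0.0171 and 0.0339). Without Model 2 and Model 3 together, a fit that leaves Model 1 alone in its group, these were 2.15 for Ggt1 and 1.31 for Anpep. The call of Ggt1 ended without Normal 3 (edgeR adjusted p = 0.0923), and that of Anpep without Normal 1 (0.106), Normal 2 (0.0868), Normal 3 (0.137), Atorvastatin 2 (0.0524) or Atorvastatin 3 (0.0512), with only the 2 groups compared (0.0734) and under limma-voom (0.110).

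Slc3a2, the partner chain of the cystine importer, had 74.3, 76.2 and 60.5 CPM in the Model libraries, against 44.8, 39.9 and 48.0 CPM in the Normal libraries. The groups did not overlap, and the log2 fold change was 0.67 ± 0.13 (SE, edgeR adjusted p = 0.0233). This call ended without Normal 1 (0.0729), Normal 2 (0.0760), Normal 3 (0.0695), Model 1 (0.0776) or Model 2 (0.0631) and with only the 2 groups compared (0.0519). In Atorvastatin Ggt1 had 9.74, 6.98 and 9.98 CPM, Anpep 14.3, 14.5 and 21.3 CPM and Slc3a2 54.4, 50.9 and 60.2 CPM. These lay above the Normal and below the Model libraries for Ggt1 and Slc3a2, and for Anpep the highest Atorvastatin library overlapped with Model 1. Their log2 fold changes of Atorvastatin over Model were -1.78, -2.04 and -0.35 and did not pass (edgeR adjusted p = 0.330, 0.330 and 0.360; DESeq2 called Ggt1 at 0.0318). Dpep1, which splits the same cysteinylglycine as Anpep and is named after its values were seen, had 243, 295 and 352 CPM in Atorvastatin, 112, 384 and 124 CPM in Model and 688, 554 and 532 CPM in Normal. Every Model and Atorvastatin library lay below every Normal library, and Model 2 was far above the other Model libraries. The log2 fold change in Model over Normal was -1.52 ± 0.43 and did not pass by edgeR (SE, adjusted p = 0.0805), but did by DESeq2 (0.00247), by limma-voom (0.0492) and without Model 2 (0.00571). In Atorvastatin over Normal it was -0.997 (edgeR adjusted p = 0.313), and it passed without Model 2 (0.0364) and with only the 2 groups compared (0.0403). None of the 16 passed by edgeR in Atorvastatin against Model or Atorvastatin against Normal, with 4 and 4 at an unadjusted p under 0.05, 1 and 0 by DESeq2 and none by limma-voom.

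Of 12 microsomal glutathione transferases, a membrane family separate from the cytosolic GSTs, and relatives, 2 rose in Model against Normal, beside 4.37% of all genes called higher. These were Ptges, the inducible prostaglandin E synthase, and Alox5ap, which presents arachidonic acid to 5-lipoxygenase. Ptges had 24.3, 18.5 and 12.1 CPM in Model, against 6.42, 6.02 and 6.75 CPM in Normal. Alox5ap had 9.75, 11.2 and 9.98 CPM in Model, against 3.96, 4.94 and 3.75 CPM in Normal. Neither overlapped, and the log2 fold changes were 1.52 ± 0.33 and 1.29 ± 0.22 (SE, edgeR adjusted p = 0.0332 and 0.0145). Leaving out Normal 1 (0.0933), Normal 2 (0.0970), Normal 3 (0.127), Model 1 (0.103) or Model 2 (0.0706), or using limma-voom (0.0581), ended the call of Ptges. Leaving out Normal 1 (0.0571) or Normal 3 (0.0782) ended that of Alox5ap. The neutrophil and monocyte markers, of which 6 of 8 rose, moved with these 2 genes, and their part was not tested. In Atorvastatin Ptges had 22.1, 11.6 and 10.6 CPM and Alox5ap 11.1, 6.88 and 7.88 CPM, all above the Normal libraries, with log2 fold changes over Normal of 1.21 and 1.03 that did not pass (edgeR adjusted p = 0.111 and 0.0547). None of the 12 passed by edgeR in Atorvastatin against Model or Atorvastatin against Normal, with 2 and 4 at an unadjusted p under 0.05, 1 and 3 by DESeq2 and none by limma-voom.

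No gene passed by edgeR in any comparison in 4 further lists, each given in the order Model against Normal, Atorvastatin against Model and Atorvastatin against Normal. In this order 20.9%, 11.8% and 15.2% of all genes had an unadjusted p under 0.05. Of 12 conjugate efflux transporters, ABC pumps and the solute carriers Slc51a and Slc51b, 4, 2 and 1 had an unadjusted p under 0.05, and DESeq2 and limma-voom called none. Of 4 deconjugating enzymes these were 1, 0 and 1, with none by DESeq2 or limma-voom. Of 8 other conjugating enzymes tested these were 1, 0 and 2, and DESeq2 called 1, 0 and 0 and limma-voom none. Of 20 xenobiotic receptors and epithelial transcription factors these were 1, 4 and 2, and DESeq2 called 0, 1 and 2 and limma-voom none.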

How the data were processed

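RNA-seq libraries of mouse colon (3 groups of 3) were analysed from 1 deposited table. The values that the authors deposited are estimated counts, whole numbers and unscaled, of 21720 genes. The submitters' processing notes name bcl2fastq 2.0, HISAT2, StringTie and DESeq2 and the builds rn6 and mm39, with no roles; the counting settings and the strand setting are not given in the sources used here. Among low values, multiples of 4 were in excess (4 occurred 1997 times and 1 occurred 346 times). The libraries, prepared with a SMARTer kit per the labels' protocols, had 72584333 to 91737502 estimated counts. All libraries of a group differed beyond counting noise.

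Here, the Ugt1a rows were summed, genes were filtered by filterByExpr, TMM scaling was applied, and edgeR's quasi-likelihood test (edgeR 4.0.16, R 4.3.3) used all 9 libraries in 1 model without covariates, with Benjamini-Hochberg adjustment over 16152 genes, 2-sided, threshold 0.05. The SE of a log2 fold change is its size over the square root of F. Alternatives were other scalings, filters, DESeq2 1.42.0, limma-voom (limma 3.58.1), counts divided by 4, Ugt1a rows apart, 2 groups only, a replicate block and left-out libraries. The scripts were tested on simulated data. Named are genes past the threshold, the 2 of each enzyme class with the smallest p in each comparison, the most abundant of each class, the Ugt1a locus, list genes past the threshold (at most 3 a list) and genes marked as chosen later. The genes, lists and tests were chosen with earlier results of these data known. Sequences are from RefSeq and GENCODE M21 on GRCm38 and were not joined to the table's coordinates. Figures were drawn with matplotlib 3.10.9.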

Additional observations from a re-analysis of the deposited data

How the results depend on the processing

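With 3 libraries a group, limits lie in the spread between libraries; at low counts, such as those of Ugt2b36, Ugt2b38 and Ugt8a, 1 read pair is about 4 counts. The cause of the changes given here was not tested. In Model against Normal, where 1 conjugation gene passed, the count was 2 with upper-quartile scaling, 8 with DESeq2 (1 higher, 7 lower), 2 with at least 5 CPM in 3 libraries, 0 with only the 2 groups, and 0 to 3 on leaving out 1 library. The fit without Model 2 and Model 3 together leaves Model 1 alone in its group, with no spread to judge it by, so no count of genes is given for it. In Atorvastatin against Model, where 0 passed, DESeq2 gave 2, and leaving out 1 library 0 to 0. In Atorvastatin against Normal, where 1 passed, DESeq2 gave 4, limma-voom 0, and leaving out 1 library 0 to 2. Over all genes these counts were 883 in the edgeR fit and 1966 with DESeq2 in Model against Normal (164 to 1168 on leaving out 1 library), 0 and 323 in Atorvastatin against Model, and 273 and 1064 in Atorvastatin against Normal (17 to 382).

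With the replicate block the counts of conjugation genes were 0, 0 and 0 in the 3 comparisons, and those of all genes 402, 0 and 110. Of the named genes that had passed, those not called with the block were Gstp3 (adjusted p = 0.107), Slc3a2 (0.0747) and Anpep (0.0605) in Model against Normal and Sult2b1 (0.116), Papss1 (0.0849) and Clca1 (0.0980) in Atorvastatin against Normal. Same-numbered libraries correlated at -0.28 to 0.23 in their deviations from the group means, and differently numbered libraries at -0.24 to 0.26. With 3 libraries a group, these values cannot tell whether the numbers pair the libraries.

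Of the genes named, Gstk1 in Model over Normal (log2 fold change 0.00470) turned to -0.00376 with DESeq2 size factors, -0.0237 with upper-quartile scaling, -0.00374 with DESeq2, -0.0108 with limma-voom and -0.351 without Model 2 and Model 3 together. Without these 2 libraries, Papss1, Sult1a1 and Sult1d1 in Atorvastatin over Model turned to -0.0680, 0.114 and 0.115, and Ugt2b38 in Atorvastatin over Normal turned to -1.16 with limma-voom. On leaving out 1 library, ranges that crossed 0 were -0.14 to 0.15 for Gstk1 and -0.72 to 0.33 for Sult4a1 in Model over Normal. In Atorvastatin over Model they were -0.0388 to 0.99 for Ugt2b35, -0.0848 to 0.10 for Papss1, -0.26 to 0.0565 for Gsto1, -0.54 to 0.0710 for Sult1a1, -0.10 to 0.15 for Gstp1 and -0.22 to 0.19 for Sult1d1. In Atorvastatin over Normal they were -0.0582 to 0.26 for Ugt1a and -0.10 to 0.29 for Gstp2. None of these had passed the test. Of all other values of named genes, 762 on leaving out 1 library and 945 under other alternatives kept direction and side of the threshold, 45 and 20 lost it, and 9 and 30 gained it.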
